A study of Mus musculus with 2 samples.

Results

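A set of 9 genes that let blood leukocytes grip and leave a vessel was followed cell class by cell class in an injured mouse hindlimb with and without irradiation. They were matched by symbol, and all 9 were found among the 32285 genes of the deposited tables. Selp, Sele and Glycam1 belong to the selectin step on the vessel side, and Selplg to the same step on the leukocyte side. Icam1, Icam2 and Vcam1 are vessel ligands of the immunoglobulin family, and Itgal and Itga4 encode integrin chains of leukocytes that bind them.

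Leukocytes leave venules in steps. Selectins on activated endothelium catch sialylated and fucosylated ligands such as PSGL-1, the product of Selplg, so that cells tether and roll, and chemokines then activate leukocyte integrins. LFA-1, whose alpha chain is Itgal, binds ICAM-1 and ICAM-2, and VLA-4, whose alpha chain is Itga4, binds VCAM-1, which gives firm adhesion ahead of passage through the wall.

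The study used a mouse model of heterotopic ossification, in which bone forms in soft tissue after trauma, and asked how radiation given after the injury acts on cells of the site. Male C57BL/6 mice of 8 to 10 weeks received a burn over 30% of the body surface together with transection of the left Achilles tendon. The control group had the injury and no radiation, and the irradiated group had the same injury plus 7 Gy given once to the injury site, through a collimator 2 cm wide. Unsorted cells of the tenotomy site were taken on day 7 after injury and run on the 10x Genomics 3' v3 platform, with 1 library per group. Arms of 10 mice are named in the protocol, but how many mice went into each library is not given in the sources used here. The protocol lists irradiation on day 1 and on day 3 after surgery. The design text speaks of post-radiation day 3, so the day of irradiation of this library is not settled by the sources used here.

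With 1 library per group there is no spread between animals, no test and no p-value. Every interval below is a 95% interval for counting error only, and a difference between the libraries cannot be told apart from a difference between the mice or the preparations behind them. A gene was called higher or lower in a class when its summed level, in CPM (the UMIs of the gene scaled to a fixed total of all UMIs in the class, the usual counts-per-million scale), differed at least 1.5-fold with an interval that left out equality, and the same rule was run on every gene with at least 20 UMIs (unique molecular identifiers, 1 per captured RNA) in that class to give a background share.

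After filtering, 8711 control and 7116 irradiated cells remained, with medians of 13251 and 10139 UMIs per cell. The libraries shared 32 cell barcodes, 21 of them among kept cells. The doublet caller removed 5.73% of filtered control cells and 1.03% of irradiated ones, against expected shares of 9.10% and 6.64%. The kept cells formed 33 clusters, grouped by marker genes into classes, of which 9 had at least 100 cells in each library. The members were kept out of the clustering, so none of them defined a class. The endothelial-like class held 574 control and 363 irradiated cells, and its 10 endothelial markers, such as Cdh5 and Pecam1, summed to 7782 and 8634 CPM, against 36.4 and 37.4 CPM in keratinocyte-like cells.

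On the GRCm38 assembly, which the submitters name as mm10, Sele (ENSMUSG00000026582) lies on chromosome 1 from 164048234 to 164057677 and Selp (ENSMUSG00000026580) from 164115264 to 164150026. Both are on the plus strand, with 57.6 kilobases between them. Icam1 (ENSMUSG00000037405) lies on chromosome 9 from 21015985 to 21028817, on the plus strand, and Vcam1 (ENSMUSG00000027962) on chromosome 3 from 116109949 to 116129688, on the minus strand. Selp, Icam1, Vcam1 and Itga4 each overlap at least 1 annotated gene on the opposite strand, and whether counting used strand is not given in the sources used here.

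The 250 bases before the RefSeq start of Selp, Sele, Glycam1 and Icam1 are shown because these are the vessel-side genes found in the RefSeq table for GRCm38.p6, which held 5 of the 9 genes (these and Itga4). RefSeq places the Icam1 start ahead of the one given above, so that its window ends before that position. All are printed 5′ to 3′ on the strand of the gene, at chr1:164115014-164115263 for Selp, chr1:164047984-164048233 for Sele and chr9:21015690-21015939 for Icam1, on the plus strand, and at chr15:103565082-103565331 for Glycam1, on the minus strand. Capitals mark matches, on either strand, to a kB-type motif spelled GGNNNTTCC or to a GAS-type motif spelled TTCNNNGAA, the letter patterns of NF-kB and STAT sites.
Selp: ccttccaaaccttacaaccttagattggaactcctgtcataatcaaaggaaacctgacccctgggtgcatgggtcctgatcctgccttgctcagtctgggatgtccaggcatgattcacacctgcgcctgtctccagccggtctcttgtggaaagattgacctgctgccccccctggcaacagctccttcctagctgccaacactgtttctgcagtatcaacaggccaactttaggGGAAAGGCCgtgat
Sele: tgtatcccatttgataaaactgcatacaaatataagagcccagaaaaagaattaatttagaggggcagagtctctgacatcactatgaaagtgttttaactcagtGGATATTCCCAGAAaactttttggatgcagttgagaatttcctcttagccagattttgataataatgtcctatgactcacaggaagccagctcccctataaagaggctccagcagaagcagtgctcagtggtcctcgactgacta
Glycam1: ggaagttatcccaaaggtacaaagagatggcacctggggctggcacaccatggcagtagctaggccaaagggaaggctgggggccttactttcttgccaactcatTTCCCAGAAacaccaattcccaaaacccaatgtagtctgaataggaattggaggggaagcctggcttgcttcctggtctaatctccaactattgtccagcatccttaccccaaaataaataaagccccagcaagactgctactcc
Icam1: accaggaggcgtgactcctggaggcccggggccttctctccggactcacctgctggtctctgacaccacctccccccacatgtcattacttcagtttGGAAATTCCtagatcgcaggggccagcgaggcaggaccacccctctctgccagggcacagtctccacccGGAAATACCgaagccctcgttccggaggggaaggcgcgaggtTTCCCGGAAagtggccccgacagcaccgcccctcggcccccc
Selp held 1 kB-type match, Sele 1 match of each type, which overlap, and Icam1 2 kB-type matches and 1 GAS-type match. Among 32851 annotated promoters of the same length, 15.7% held the kB-type and 7.02% the GAS-type pattern. The Glycam1 window held a GAS-type match and no kB-type match, and the Itga4 window held neither. A match of letters is a description of these windows and not a site.

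The 9 genes divided sharply by class. Endothelial-like cells held 93.5% of all Selp UMIs in the control library and 95.2% in the irradiated one, 95.9% and 96.7% of Sele, 89.4% and 87.1% of Glycam1, and 88.1% and 75.2% of Icam2. Mesenchymal-like cells, the fibroblast lineage of the site, held most Vcam1 UMIs, 71.4% and 54.9%. Icam1 was spread widely, with its largest shares in keratinocyte-like cells (33.4% and 29.5%). Selplg, Itgal and Itga4 were carried by leukocyte classes. The plot of levels by class shows the same division in CPM.

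**Figure D1:**
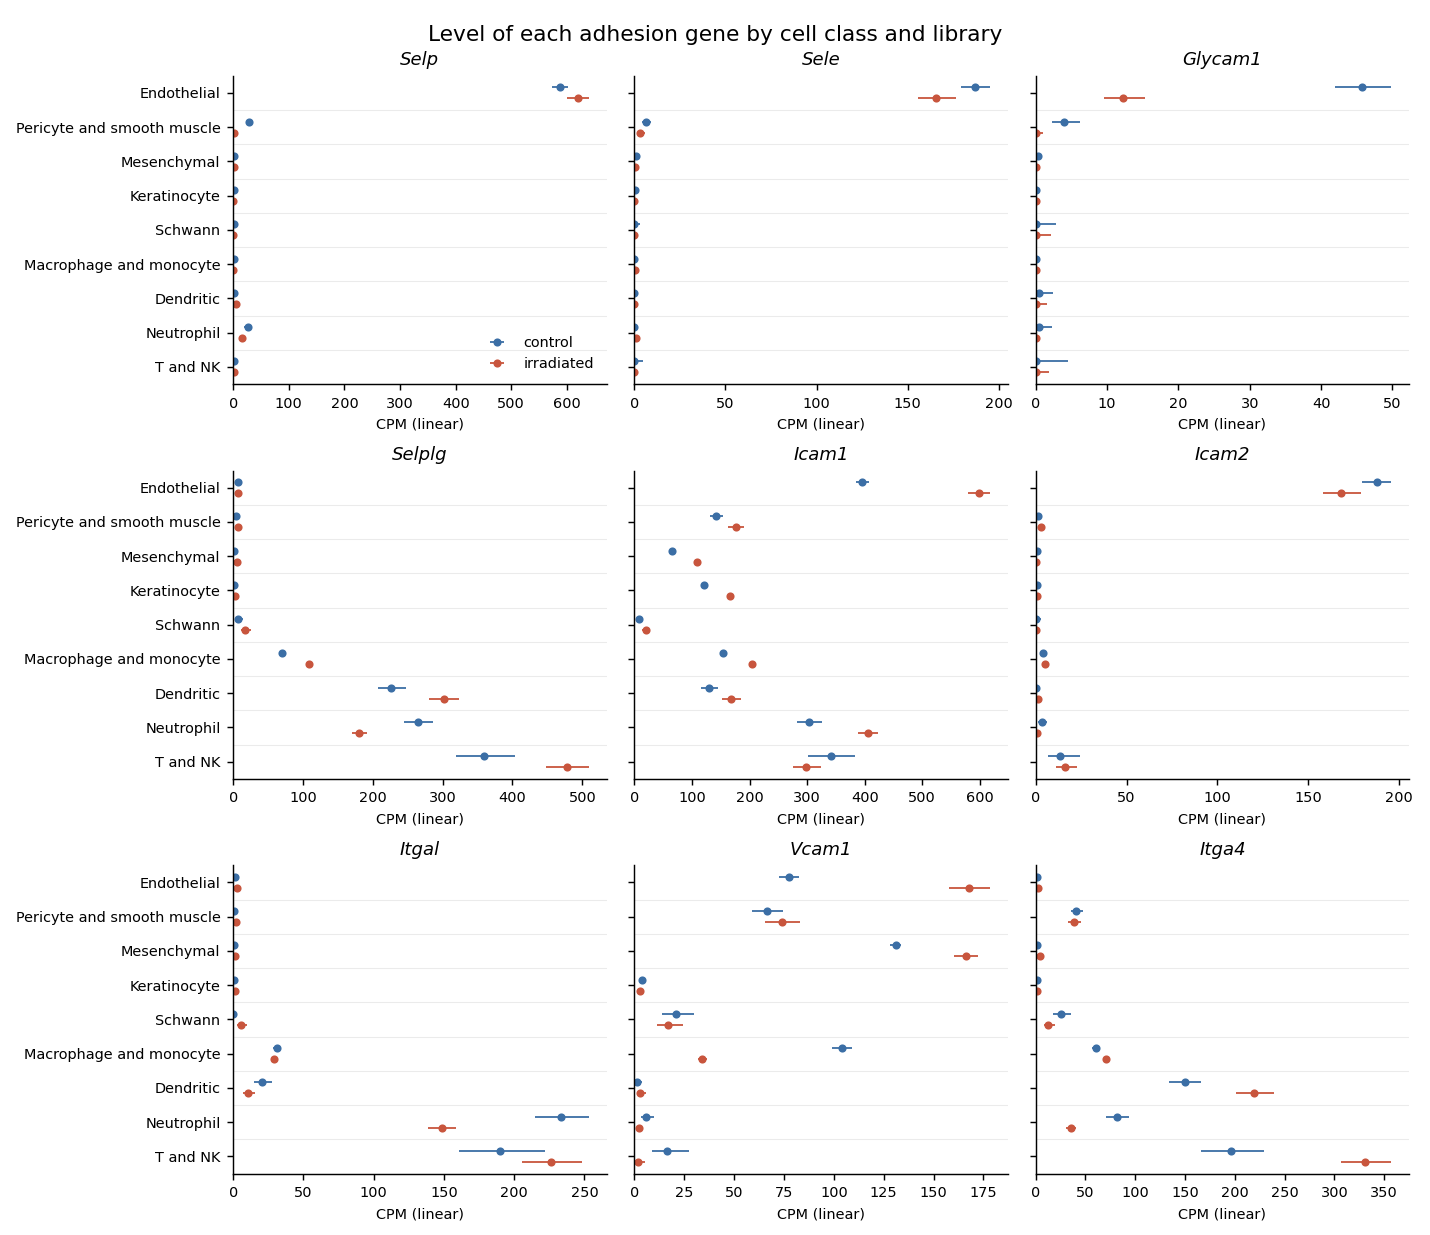
Level of each gene in CPM (linear axis, its own scale per panel) in the 9 compared cell classes, blue for the control and red for the irradiated library; points are class sums and bars are 95% Poisson intervals for counting error. Selp, Sele, Glycam1 and Icam2 stand out in endothelial-like cells, Selplg, Itgal and Itga4 in leukocyte classes, and Vcam1 in endothelial-like, mesenchymal-like, pericyte-like and control macrophage-like cells.

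P-selectin (Selp), which endothelium and platelets store and bring to the surface within minutes, was at 587 CPM in control endothelial-like cells (interval 573 to 601) and at 619 CPM in irradiated ones (599.8 to 639.5). The log2 ratio of irradiated over control was 0.08 (0.02 to 0.14), so the level of the class was close in both libraries. With every cell thinned to 2000 UMIs, 34.6% of control and 34.6% of irradiated endothelial-like cells had a Selp UMI, against 0.289% and 0.158% of keratinocyte-like cells. Unthinned, the endothelial-like shares were 52.8% and 44.6%, at median depths of 15450.5 and 13549 UMIs.

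E-selectin (Sele), which endothelium makes mainly on activation by cytokines, was at 187 CPM (179 to 195) and 166 CPM (156 to 176), a log2 ratio of -0.18 (-0.28 to -0.07). Thinned, 21.6% of control and 16.7% of irradiated endothelial-like cells had a Sele UMI, and 0 of 2077 and 0 of 1264 keratinocyte-like cells did, which allows shares of up to 0.144% and 0.237%. Neither selectin met the 1.5-fold rule in the class as a whole.

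Within the endothelial-like class the selectins were concentrated in a few of its 10 subclusters. A venular-like subcluster led by Ackr1, the chemokine-binding receptor of venules, held 71 control and 74 irradiated cells. Selp was at 2392 CPM there in the control library and at 2114 CPM in the irradiated one, and 98.6% and 94.6% of its cells had a Selp UMI. Sele was at 658 and 557 CPM in the same cells. In the capillary-like subcluster, led by Timp4 and Lpl, Selp was at 5.47 CPM (2 UMIs) and 95.1 CPM (92 UMIs in 7 of 94 cells), and Sele at 0 and 7 UMIs. The arterial-like subcluster, led by Gja5, had 0 Sele UMIs in 47 control cells and 42 in 4 of 34 irradiated cells.

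A second selectin-rich subcluster could not be named from its markers and was led by Mctp1 and Slc14a1, with Sele, Glycam1 and Selp among its 10 leading genes although these were left out of the clustering. It held 101 control and 48 irradiated cells. Selp was at 1163 and 998 CPM there, and Sele at 412 and 223 CPM, a log2 ratio of -0.89 (-1.10 to -0.67). Sele was therefore lower in the irradiated cells of that subcluster by the rule of size, while the venular-like log2 ratio of -0.24 (-0.41 to -0.07) was not past it. These subclusters depend on the clustering resolution, 0.6 here. At 0.3 an unnamed subcluster (259 and 63 cells) led by Fam155a also held Mctp1 and Glycam1, with Sele at 207 and 146 CPM. Gja5 then led a subcluster together with neutrophil genes. At 1.0 an unnamed subcluster holding Mctp1 (73 and 39 cells) had Sele at 504 and 252 CPM.

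The makeup of the class differed strongly between the libraries. An unnamed subcluster led by Fam155a and holding Esm1, a gene of sprouting endothelium, made up 28.2% of control and 6.34% of irradiated endothelial-like cells, and the capillary-like subcluster 5.75% and 25.9%. In the Fam155a subcluster Selp was at 233 CPM in control and 73.9 CPM in irradiated cells, and Sele at 68.2 and 4.93 CPM (3 UMIs in 23 cells). The class was also split between a pair of main clusters. In the smaller of them, which carries the pericyte gene Rgs5 among its leading genes (94 and 129 cells), Selp was at 255 and 84.5 CPM and Sele at 88.3 and 10.5 CPM. In the larger (480 and 234 cells) Selp was at 665 and 799 CPM and Sele at 210 and 218 CPM. In 4 subclusters, called mixed below, genes of pericytes, neutrophils or keratinocytes led beside the endothelial ones, and without them Selp was at 696 and 709 CPM.

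**Figure D2:**
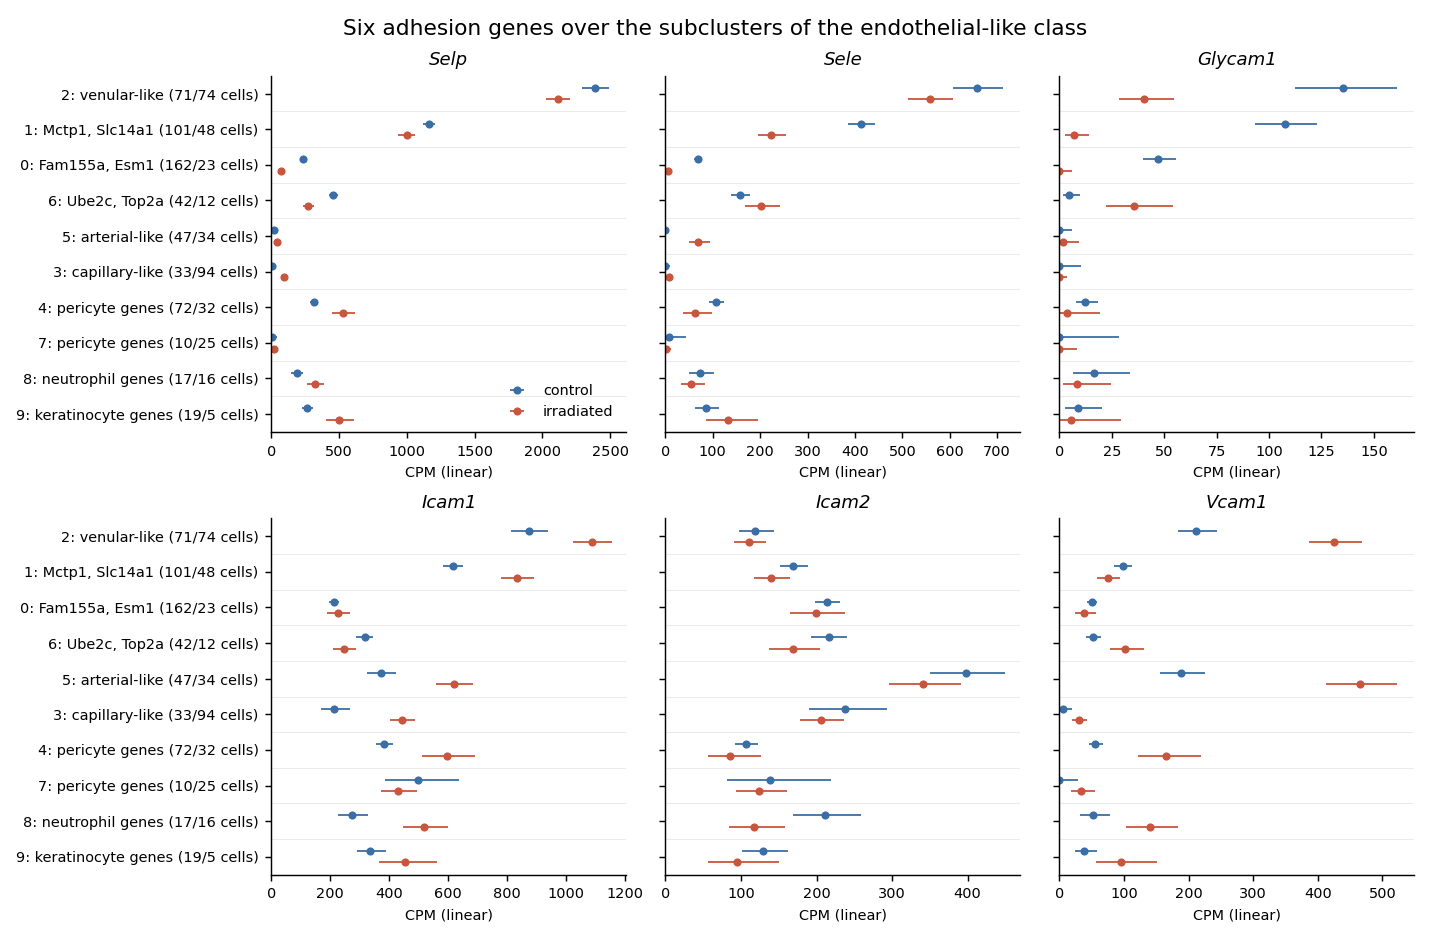
Level in CPM (linear axes) of 6 vessel genes over the 10 subclusters of the endothelial-like class, labelled by name or leading genes with the control/irradiated cell numbers; points are sums over the cells of a subcluster and bars are 95% Poisson intervals. Selp, Sele and Icam1 peak in the venular-like subcluster, Icam2 in the arterial-like one, and Vcam1 is higher in the irradiated than in the control cells of both.

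Glycam1 encodes a mucin that carries selectin ligands and is known from high endothelial venules of lymph nodes. It was at 45.8 CPM in control endothelial-like cells (41.9 to 49.9, 521 UMIs in 84 of 574 cells) and at 12.2 CPM in irradiated ones (9.57 to 15.3, 74 UMIs in 17 of 363 cells). The log2 ratio was -1.91 (-2.28 to -1.56), a level 3.76-fold higher in the control library. In both libraries the UMIs sat in few cells: the 5 richest cells gave 52.2% of control UMIs, with up to 78 in a cell, and 73.0% of irradiated UMIs, with up to 21.

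The lower Glycam1 level was seen inside subclusters as well. It was at 135 and 40.1 CPM in the venular-like subcluster, at 107 and 6.94 CPM in the subcluster led by Mctp1, where 7 irradiated UMIs came from a single cell, and at 47.1 CPM and 0 UMIs in the subcluster led by Fam155a, where 3 counts in the 23 irradiated cells would be 4.93 CPM. An unnamed subcluster led by Ube2c and Cenpf, genes of dividing cells, went the other way, with 4.65 CPM (7 UMIs) in control and 35.7 CPM (22 UMIs in 2 of 12 cells) in irradiated cells. Thinned to 2000 UMIs per cell, 4.64% (3.05% to 6.73%) of control and 2.27% (0.983% to 4.42%) of irradiated endothelial-like cells had a Glycam1 UMI, intervals that overlap. Thinned venular-like cells with a Glycam1 UMI were 6 of 70 (8.57%) in control and 6 of 73 (8.22%) in irradiated, so that share was close. In the Mctp1 subcluster they were 8 of 100 and 0 of 48, and in the Fam155a subcluster 9 of 160 and 0 of 23. With the class clustered at 1.0, an unnamed subcluster led by Glycam1 held 66 control and 6 irradiated cells. The part of such differences in makeup inside the subclusters was not tested. Lymphatic endothelial-like cells, 55 and 45 in number, held 18 and 11 Glycam1 UMIs in 4 and 2 cells.

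ICAM-1 is raised on endothelium and many other cells by inflammatory cytokines. In endothelial-like cells Icam1 was at 396 CPM in the control library (385 to 408) and at 598 CPM in the irradiated one (579 to 618). The log2 ratio was 0.59 (0.53 to 0.66), a 1.51-fold difference that only just met the rule and did not with TMM scaling (0.58), with a stricter cell filter (0.45) or with subclusters weighted alike (0.44). The direction was the same in the subclusters that hold the selectins, with 875 and 1088 CPM in the venular-like and 617 and 834 CPM in the Mctp1 subcluster. It was also at 213 and 444 CPM in capillary-like and 372 and 619 CPM in arterial-like cells. The Ube2c subcluster was lower in the irradiated library, at 316 and 246 CPM, without meeting the rule. Thinned, 45.7% of control and 58.1% of irradiated endothelial-like cells had an Icam1 UMI, and the lowest shares were those of Schwann-like cells, 2.00% and 2.44%.

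ICAM-2, which resting endothelium carries all the time, showed no such difference. Icam2 was at 188 CPM (180 to 196) and 168 CPM (158 to 179), a log2 ratio of -0.16 (-0.27 to -0.05), and 28.9% and 27.2% of thinned cells had a UMI. Its highest subcluster was the arterial-like one, at 398 and 341 CPM, and it was at 119 and 110 CPM in the venular-like one, the reverse of the selectin pattern. Lymphatic endothelial-like cells carried it too, at 139 and 119 CPM.

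Outside the vessels Icam1 was higher in irradiated mesenchymal-like cells, at 109 CPM (104 to 114) against 64.5 CPM (62.5 to 66.6), a log2 ratio of 0.76 (0.68 to 0.84) that fell to 0.38 with clusters weighted alike in both libraries. Most control cells of that class were in clusters 3 and 5 (820 and 687 of 2328 cells), whereas 335 of 651 irradiated cells were in cluster 6, in which Icam1 was at 148 and 189 CPM. In cluster 3 the order was the reverse, at 79.1 and 66.6 CPM (a log2 ratio of -0.25, -0.47 to -0.03), and in cluster 5 it was at 30.6 and 57.3 CPM. Macrophage- and monocyte-like cells had 154 and 205 CPM, neutrophil-like cells 303 and 405 CPM, and T- and NK-like cells 341 and 299 CPM. Keratinocyte-like cells had 121 and 165 CPM, but their clusters did not move together: a hair follicle-type cluster led by Krt15 and holding Lgr5 had 399.7 and 266 CPM, and a cluster led by Krt5 and holding Krt6a had 131 and 199 CPM.

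VCAM-1, the vessel ligand of VLA-4, had the widest difference upward among the vessel ligands in endothelial-like cells. Vcam1 was at 77.5 CPM in control cells (72.4 to 82.7, 882 UMIs) and at 168 CPM in irradiated ones (158 to 178, 1019 UMIs), a log2 ratio of 1.12 (0.98 to 1.25). The shares of thinned cells with a UMI were 10.2% (7.80% to 13%) and 16.7% (13% to 21%), against 0.433% and 0.367% of neutrophil-like cells. It was at 212 and 426 CPM in the venular-like and at 189 and 466 CPM in the arterial-like subcluster, both higher in the irradiated library by the rule. The Mctp1 subcluster did not share this, with 97.9 and 74.4 CPM, nor did the Fam155a subcluster, with 50 and 37.8 CPM. The 8 mesenchymal markers summed to 231 and 1686 CPM in the venular-like subcluster, where Dcn was among the 10 leading genes. In the arterial-like one they summed to 309 and 50.9 CPM. Their part in the Vcam1 result was not tested. Of the irradiated class total of Vcam1, 28.9% of UMIs came from 5 cells, with up to 84 in a cell, against 17.8% and up to 44 in the control library.

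In all, 4 of the 9 genes were called higher and 1 lower in endothelial-like cells, where the rule called 9.11% of 13797 genes higher and 4.24% lower and the median gene had a log2 ratio of 0.01. The other 2 genes called higher were the leukocyte chains Itgal and Itga4, each with 12 control and 16 irradiated UMIs. Of these, 6 and 7 Itgal UMIs and 6 and 12 Itga4 UMIs were in the subcluster that carries neutrophil genes. All 9 neutrophil markers were detected in the class, with a sum of 113 CPM in control and 357 CPM in irradiated cells, and all 15 macrophage markers, with 170 and 262 CPM. With the 4 mixed subclusters taken out, Itga4 was no longer called, at 3 and 2 UMIs, Itgal still was, at 3 and 9 UMIs, and Vcam1 was at 87.2 and 186 CPM (a log2 ratio of 1.09) and Glycam1 at 57.6 and 14.4 CPM. The venular-like subcluster, with the mesenchymal marker sums given above, stayed in.

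Vcam1 ran the other way in macrophage- and monocyte-like cells, at 104 CPM in the control library (99.1 to 109) and 33.9 CPM in the irradiated one (31.7 to 36.2), a log2 ratio of -1.62 (-1.74 to -1.50). Most of it was in cluster 2, led by Ccl8 and holding Mrc1, a gene of tissue-resident macrophages, where Vcam1 was at 213 and 132 CPM. That cluster held 703 of 1954 control but 357 of 2657 irradiated cells of the class, while cluster 1, which holds the monocyte gene Ly6c2 (124 and 971 cells), had Vcam1 at 21.8 and 12.4 CPM, and cluster 10, led by Cxcl3 and Arg1 (128 and 506 cells), at 16.6 and 8.40 CPM. Weighting the clusters alike in both libraries left a log2 ratio of -0.67. Within cluster 2 the log2 ratio was -0.69 (-0.83 to -0.55).

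Mesenchymal-like cells had Vcam1 at 131 CPM (128 to 134) and 166 CPM (160 to 172), a log2 ratio of 0.34 that did not meet the rule. Its highest mesenchymal cluster was cluster 6, led by Col1a1 and Dcn, at 199 and 256 CPM, and the tendon-type cluster 18, led by Thbs4, had 80.7 and 105 CPM. In pericyte- and smooth muscle-like cells it was at 66.5 and 73.8 CPM, with overlapping intervals.

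**Figure D3:**
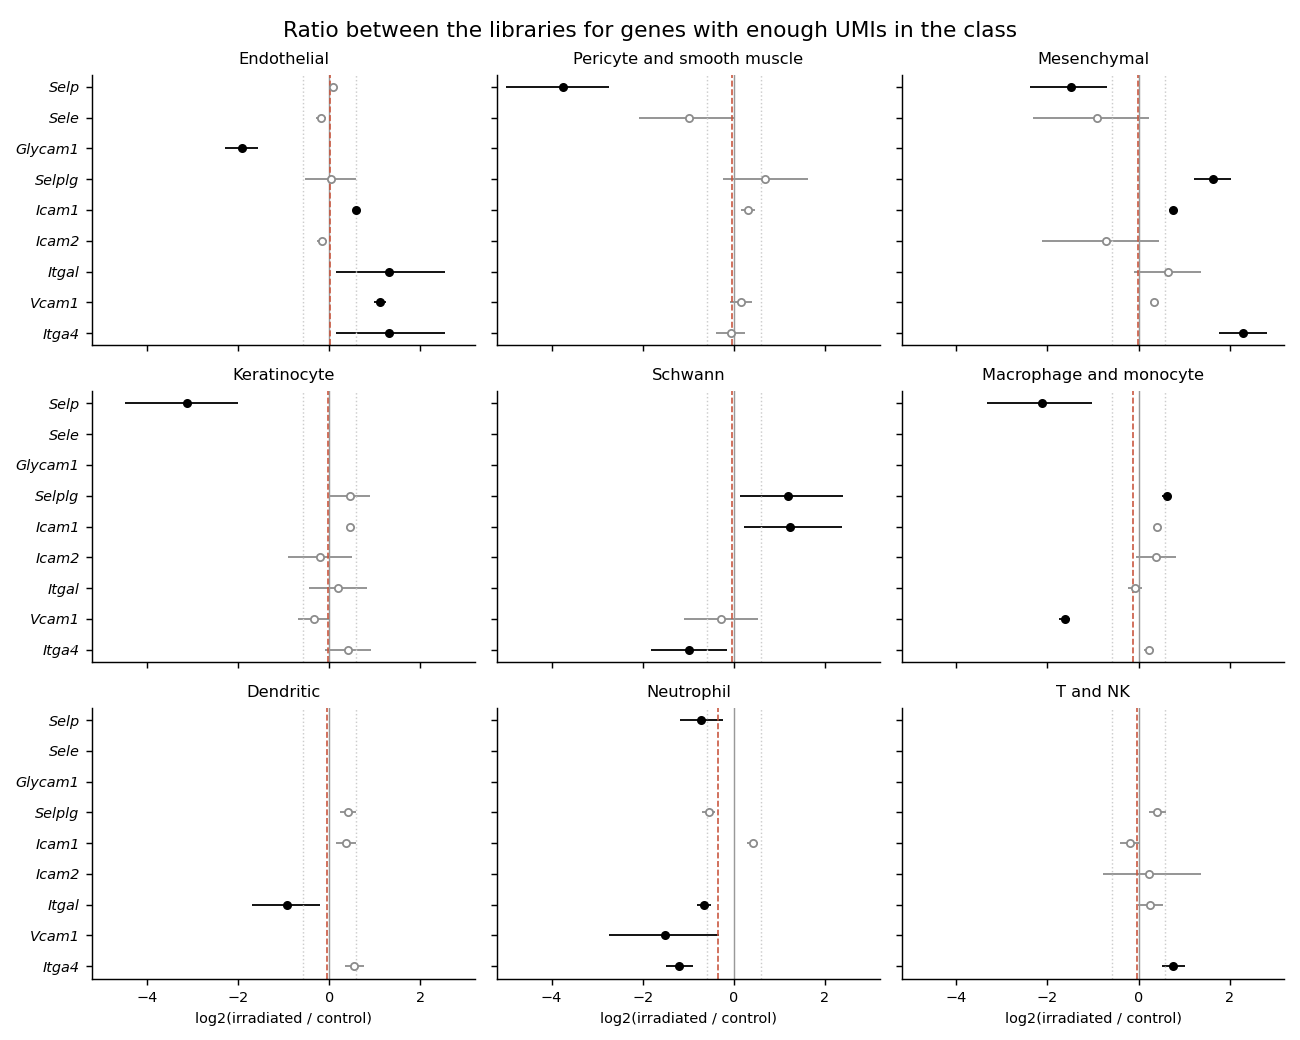
Log2 ratio of irradiated over control CPM for each gene in the 9 classes, for genes with at least 20 UMIs in the class; bars are 95% intervals for counting error, filled points met the rule of 1.5-fold (dotted lines) and the dashed line is the median of all genes in the class. Endothelial-like Glycam1 (-1.91) and macrophage-like Vcam1 (-1.62) sit to the left and endothelial-like Vcam1 (1.12) to the right. Farthest left are Selp in pericyte-like (-3.76, 132 and 8 UMIs) and keratinocyte-like cells (-3.12, 85 and 7 UMIs). Farthest right is mesenchymal-like Itga4 (2.29, 54 and 76 UMIs). Mesenchymal-like Glycam1 is not drawn because the irradiated count is 0.

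PSGL-1, the main P-selectin ligand of leukocytes, was present in all leukocyte classes. Selplg was at 359 and 478 CPM in T- and NK-like cells, 227 and 301 CPM in dendritic-like cells, 265 and 181 CPM in neutrophil-like cells, and 70.3 and 108 CPM in macrophage- and monocyte-like cells. The small plasmacytoid dendritic-like class, 30 and 41 cells, had 527 and 595 CPM. In macrophage- and monocyte-like cells the log2 ratio was 0.62 (0.52 to 0.72), which met the rule. It was 0.38 with clusters weighted alike. In cluster 2, led by Ccl8, Selplg was at 54.6 and 98.3 CPM, and in the Chil3 monocyte cluster 14 at 123 and 124 CPM. The control and irradiated order was the reverse in neutrophil-like cells, where the log2 ratio was -0.55 (-0.69 to -0.41).

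In macrophage- and monocyte-like cells 1 of 7 tested members was called higher and 2 lower, Vcam1 and Selp, the latter on 27 and 10 UMIs. The rule called 6.5% of all genes there higher and 11.8% lower, and the median gene was at a log2 ratio of -0.12. In T- and NK-like cells 1 of 5 was called higher and none lower, against 5.91% and 7.7% of all genes, and no test was run, so there is no p-value for either count.

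LFA-1 alpha chain (Itgal) and VLA-4 alpha chain (Itga4) were both lower in irradiated neutrophil-like cells. Itgal was at 233 CPM (215 to 253) and 148 CPM (139 to 159), a log2 ratio of -0.65, and Itga4 at 81.4 CPM (70.6 to 93.4) and 35.5 CPM (30.8 to 40.8), a log2 ratio of -1.20. These were 2 of the 4 members called lower of 6 tested in this class, with none higher, the others being Selp, on 65 and 91 UMIs, and Vcam1, on 15 and 12 UMIs, and the rule called 24.4% of all its genes lower and 5.03% higher. The median gene there was at a log2 ratio of -0.34. Scaled by TMM, a method that centres most genes, Itgal came to -0.32, Selp to -0.38 and Vcam1 to -1.19 with an interval that held equality, so that none of these 3 met the rule. On that scale Itga4 came to -0.86 and was still called, Selplg to -0.22 and Icam1 to 0.75, which then met the rule as higher.

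Different clusters held most neutrophil-like cells in each library. Cluster 7 held 536 control and 201 irradiated cells, cluster 4 180 and 641, and cluster 13, led by Ccl3 and Ccl4, 118 and 415. Itgal was at 246 and 282 CPM in cluster 7, 267 and 167 CPM in cluster 4 and 75.3 and 63.4 CPM in cluster 13. Itga4 was at 93.6 and 72.4 CPM, 68.4 and 41.9 CPM, and 68.4 and 9.33 CPM in the same clusters. Each Itga4 value was lower in the irradiated library, but its cluster 7 log2 ratio of -0.37 (-0.94 to 0.17) had an interval that held equality. The cluster 13 Itga4 values rested on 20 and 15 UMIs. Icam1 was at 254 and 170 CPM in cluster 7, 291 and 344 CPM in cluster 4, and 558 and 617 CPM in cluster 13. None of these Icam1 differences met the rule, and in cluster 7 the log2 ratio was -0.58 (-0.94 to -0.24). With the clusters weighted alike the log2 ratios were -0.18 for Itgal and -0.76 for Itga4. The class was shallow, with medians of 2106.5 and 3130 UMIs per cell, and thinning left out 372 of 834 control and 166 of 1257 irradiated cells. Thinned shares were 30.5% and 20.3% for Itgal and 11.5% and 3.85% for Itga4, against at most 0.337% for either gene in keratinocyte-like cells.

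The order was the opposite in T- and NK-like cells for VLA-4. Itga4 was at 196 CPM (166 to 229) and 331 CPM (306 to 357), a log2 ratio of 0.76 (0.50 to 1.02), and the share of thinned cells with a UMI was 22.4% (15.4% to 30.7%) and 36.7% (30.7% to 43.1%). Cluster 23, led by the cytotoxic genes Gzma and Nkg7, carried more of it, at 379 and 508 CPM, than the T-cell cluster 21, led by Cd3g, at 107 and 154 CPM. The cytotoxic cluster held 44 of 142 control and 120 of 258 irradiated cells. Neither cluster met the rule on its own, and with clusters weighted alike the log2 ratio was 0.46, below it. Itgal was at 190 and 226 CPM in the class, with overlapping intervals.

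**Figure D4:**
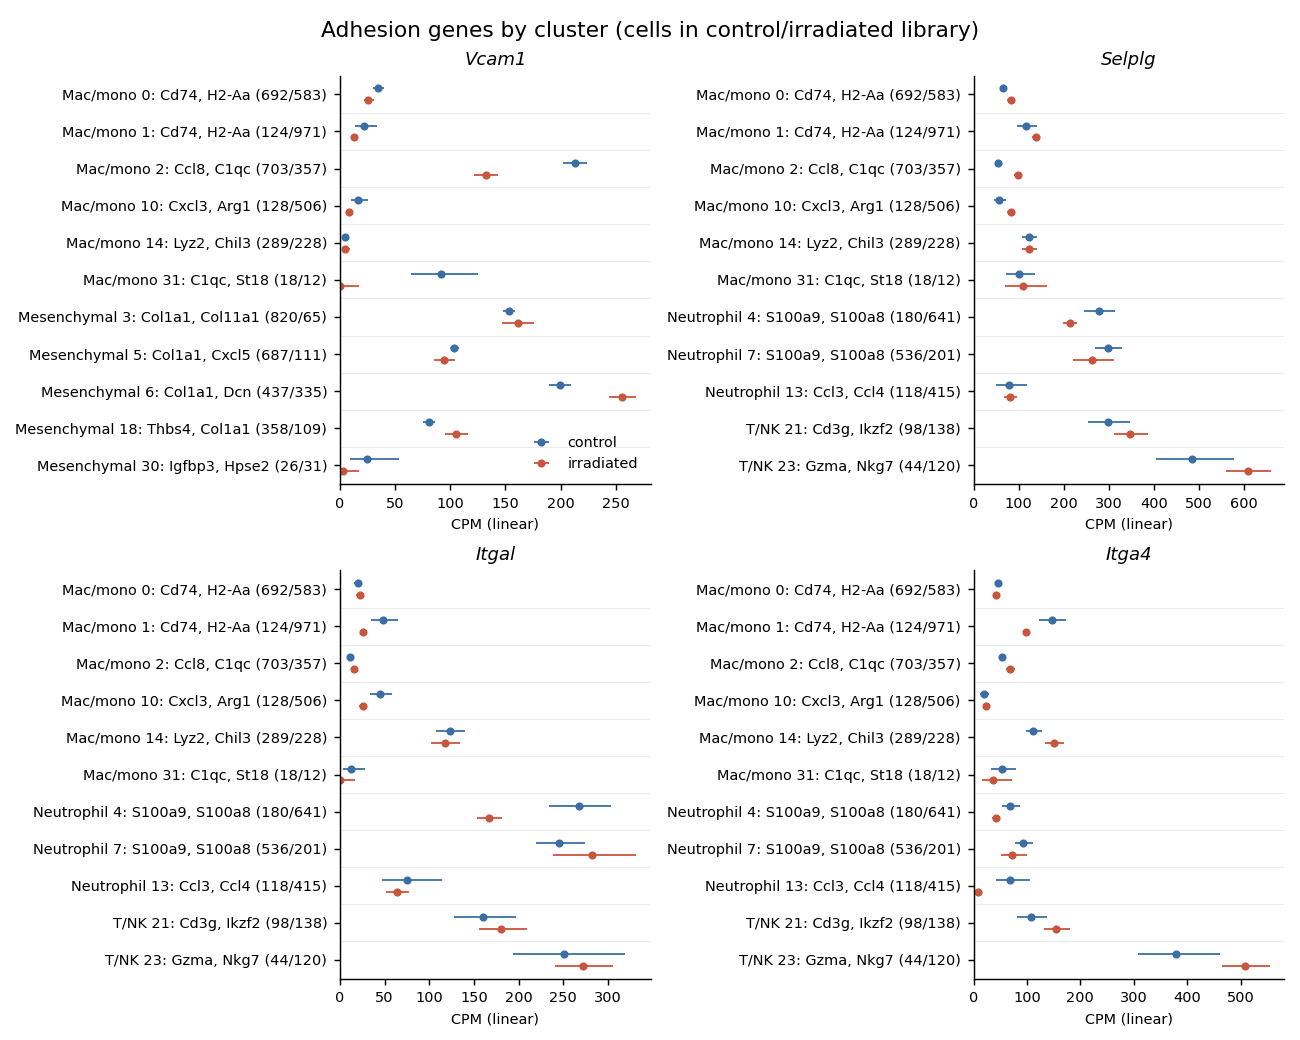
Level in CPM (linear axes) of Vcam1 in macrophage-like and mesenchymal-like clusters, and of Selplg, Itgal and Itga4 in macrophage-like, neutrophil-like and T- and NK-like clusters, each labelled by 2 leading genes and the control/irradiated cell numbers; bars are 95% Poisson intervals. Vcam1 peaks in macrophage-like cluster 2 among macrophages (213 and 132 CPM), and Itga4 in cluster 23 (379 and 508 CPM).

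Dendritic-like cells had Itga4 at 150 and 219 CPM, a log2 ratio of 0.55 just under the rule, and Itgal at 20.5 and 10.7 CPM (46 and 26 UMIs). Itgal was the 1 member of 4 tested called lower there, where 5.78% of genes were called lower and 6.38% higher. Macrophage- and monocyte-like cells had Itgal at 31.0 and 29.3 CPM and Itga4 at 60.4 and 70.4 CPM, both with ratios under the rule. Itga4 was not confined to leukocytes: pericyte- and smooth muscle-like cells had 40.8 CPM (186 UMIs in 75 of 279 cells) and 38.8 CPM (145 UMIs in 53 of 184 cells), and its log2 ratio there was -0.07.

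Several calls rested on a handful of cells. In pericyte- and smooth muscle-like cells Selp was called lower, the 1 call among 6 tested members, at 29.0 CPM and 2.14 CPM, but the control value came from 132 UMIs in 8 cells, up to 64 in a cell, and the irradiated value from 8 UMIs in 1 cell. The rule called 7.85% of genes higher and 6.43% lower in that class, and endothelial markers summed to 682 and 621 CPM in it, with all 10 detected. Flt1 (335 and 325 CPM) and Esam (199 and 168 CPM) gave most of that sum. The other markers did not move together. Pecam1 (55.3 and 50.8 CPM) was close in both libraries, and Plvap (31.1 and 36.4 CPM) and Cldn5 (4 and 39 UMIs) were higher in the irradiated one. Emcn (24.3 and 7.75 CPM), Cdh5 (17.5 and 11.8 CPM) and Egfl7 (12.5 and 6.95 CPM) were lower there, as were Kdr (21 and 10 UMIs) and Tie1 (11 and 5 UMIs). Their part in the Selp result was not tested. In mesenchymal-like cells 3 of 9 members were called higher and 2 lower, against 12.9% and 6.85% of genes. Of 76 irradiated Itga4 UMIs there, 58 were in tendon-type cluster 18 and 42 in 1 cell. Selplg was at 1.88 and 5.78 CPM beside a macrophage marker sum, with all 15 markers detected, of 197 and 583 CPM, whose part in the result was not tested. Selp was called lower there on 136 and 14 UMIs. Glycam1 had 22 UMIs in control and 0 in irradiated mesenchymal-like cells, at least 2.11-fold lower against a floor of 3 counts.

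Low counts also lay behind the remaining calls. Keratinocyte-like cells had Selp at 1.55 CPM (85 UMIs) and 0.179 CPM (7 UMIs), the 1 call among 7 tested members, where 7.23% of genes were called higher and 7.72% lower. In Schwann-like cells, with 101 and 133 cells, Icam1 (11 and 34 UMIs) and Selplg (10 and 30 UMIs) were called higher and Itga4 (33 and 22 UMIs) lower, of 4 tested, where 7.28% of genes were called higher and 7.58% lower. The Icam1 ratio turned from 1.24 to -0.75 with a looser cell filter or coarser clustering and to -1.35 with no doublets removed. These calls stood beside macrophage marker sums of 79.5 and 659 CPM. The part of those macrophage genes was not tested. Selp in neutrophil-like cells was at 26.2 CPM (65 UMIs) and 16.0 CPM (91 UMIs), in 6.71% and 6.36% of cells. Of 7 platelet markers 4 were detected in that class, with a sum of 60.9 and 64.5 CPM, and Gp9, Gp1bb and Gp6 were at 0 in both libraries. Pf4 gave 51.6 and 51.0 CPM of that sum, and it was also a leading gene of macrophage-like clusters 2 and 10.

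The selectins were found together in single cells. Among endothelial-like cells thinned to 2000 UMIs, 94 of the 121 control cells with a Sele UMI also had a Selp UMI (77.7%), and 50 of 59 in the irradiated library (84.7%), against 34.6% of all cells in each. Of cells with a Selp UMI, 19.1% of control and 34.4% of irradiated ones also had a Vcam1 UMI, and 64.9% and 79.5% an Icam1 UMI. Icam2 UMIs were found in 23.7% and 15.6% of Selp-positive cells, below its share of 28.9% and 27.2% among all endothelial-like cells. These are descriptions of cells from 1 library each.

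Other genes of the pathway were followed in lists. In endothelial-like cells, where 9.11% of all genes were called higher and 4.24% lower, none of 7 tested immunoglobulin-family and junction genes was called, with a median of 0.26. Of 8 tested enzymes that build selectin ligands, 1 was called higher, Gcnt1, on 17 and 22 UMIs.

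Of 12 genes of a list of NF-kB feedback and target genes, 4 were called higher and none lower in endothelial-like cells, with a list median of 0.45 against 0.01 for all genes. Cxcl1, a neutrophil-attracting chemokine, was at 134 and 266 CPM, Irf1, a transcription factor of the interferon response, at 160 and 280 CPM, and Tnfaip3, a feedback inhibitor of NF-kB, at 80.8 and 135 CPM. The most were called in mesenchymal-like cells, 8 of 12 higher and none lower, where 12.9% of all genes were called higher. Macrophage- and monocyte-like cells had 6 of 12 higher (6.5% of all genes) and neutrophil-like cells 5 of 12 (5.03%), with none lower in either. Keratinocyte-like cells had 3 of 12 higher (7.23%) and 1 lower (7.72%), and Schwann-like cells 3 of 11 higher (7.28%) and 1 lower (7.58%). Dendritic-like cells had 2 of 12 higher (6.38%) and none lower. Pericyte- and smooth muscle-like cells had 1 of 12 higher (7.85%) and T- and NK-like cells 1 of 11 (5.91%), with none lower. A further list held cytokines known to induce vessel adhesion molecules and their receptors. In macrophage- and monocyte-like cells 4 of its 9 tested genes were called higher and none lower, against 6.5% and 11.8% of all genes. Tnf was at 147 and 315 CPM, Il1a at 41.6 and 209 CPM and Il1b at 1046 and 2148 CPM there, and the fourth was the receptor gene Tnfrsf1b, at 229 and 360 CPM. In neutrophil-like cells 2 of 11 were called higher and 4 lower, against 5.03% and 24.4% of all genes. The higher ones were Tnf, at 492 and 1088 CPM, and Il1a, at 342 and 1103 CPM. The lower ones were the receptor gene Ifngr1, at 185 and 94.8 CPM, and Il4, Il13 and Il1r1, each on no more than 28 UMIs in a library. In endothelial-like cells 3 of 9 were called higher and 1 lower, with a list median of 0.47. The higher ones were the cytokine genes Tnf (6.76 and 23.2 CPM), Il1a (2.20 and 6.09 CPM) and Il1b (23.4 and 51.2 CPM), beside the neutrophil and macrophage marker sums given above, whose part in this was not tested. The lower one was Il1r1, the signalling receptor for both forms of interleukin 1, at 350.3 and 228 CPM. Mesenchymal-like cells had 4 of 9 higher (12.9% of all genes) and pericyte- and smooth muscle-like cells 4 of 9 (7.85%), with none lower. Keratinocyte-like cells had 4 of 9 higher (7.23%) and 1 lower (7.72%), and Schwann-like cells 4 of 7 higher (7.28%) and none lower. Dendritic-like cells had 1 of 9 higher (6.38%) and 1 lower (5.78%), and T- and NK-like cells none higher and 1 of 9 lower (7.7%).

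In neutrophil-like cells 4 of 9 tested genes of the integrin activation list were called lower and none higher, where 24.4% of all genes were called lower, with a list median of -0.39 against -0.34 for all genes of the class. They included Fermt3, which encodes kindlin-3 (66.5 and 36.0 CPM), and Skap2 (604 and 394 CPM). Of the other leukocyte integrin chains 1 of 5 was called lower there, Itgb7, on 37 and 43 UMIs.

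Across 19 points, each a class in a library with at least 50 cells, the genes whose log2(CPM + 10) was most like that of Selp among 17099 genes included Vwf, the von Willebrand factor stored with P-selectin in endothelium (Pearson r = 0.96), and Sele (0.95). For Icam2 the list included the endothelial genes Nos3 and S1pr1 (0.97 each), for Selplg the pan-leukocyte gene Ptprc (0.98), and for Itgal Hcst and Rhoh (0.98 each). The closest gene to Icam1 was Lrp10 (0.89), to Vcam1 Chpf2 (0.92), to Glycam1 Dcst1 (0.97) and to Itga4 Gtf2b (0.95). Points of the same library and class type share cells' depth and clustering, so these correlations are descriptions. For a gene found mainly in 1 class, few points set r. Selp was at 587 and 619 CPM in endothelial-like cells and at no more than 29.0 CPM in any other point.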

How the data were processed

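The deposited matrices are raw UMI counts, and per the file headers they came from Cell Ranger 5.0.1 (the submitters' processing notes give version 5 and mm10); further steps are not given in the sources used here. A barcode was kept with 500 or more genes, 1000 or more UMIs and a mitochondrial share of no more than 10%, and doublets called by Scrublet in each library were removed (Python 3.11.15, scanpy 1.11.5). Cells were clustered with Leiden (resolution 1.0; 2000 variable genes without the members, 30 principal components, no integration), and clusters were named "-like" from fixed marker lists; endothelial-like cells were clustered again at 0.6. As alternatives, endothelial-like cells were also clustered at 0.3 and 1.0. Names come from this re-clustering and may differ from the authors'.

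Counts were summed per class and library and divided by all UMIs of the class. Intervals are exact: Poisson for CPM, conditional for a ratio of a pair of counts, Clopper-Pearson for shares. They cover counting error only. The ratio and its interval were tested on simulated Poisson counts, the model that the interval assumes. UMIs gathered in few cells were not simulated, so the intervals were not tested for that case. The members and lists were chosen with earlier results of these data known. Genes other than members were named from fixed lists by the widest called ratio or the highest CPM, at most 4 per class and list. The selectin ligand list is not reported here. Alternatives covered scaling (edgeR 4.0.16 TMM, DESeq2 1.42.0 size factors), cell filters, doublets, clustering, class makeup, depth and UMI minimum.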

Additional observations from a re-analysis of the deposited data

Results flagged for a closer look

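Some members were called higher in one class and lower in another, and none of these differences between classes was tested, since each group is 1 library. Vcam1 had log2 ratios of irradiated over control of 1.12 in endothelial-like cells, -1.62 in macrophage- and monocyte-like cells and -1.52 in neutrophil-like cells, the last on 15 and 12 UMIs. Itga4 had 0.76 in T- and NK-like cells, 1.32 in endothelial-like cells (12 and 16 UMIs) and 2.29 in mesenchymal-like cells (54 and 76 UMIs), but -1.20 in neutrophil-like and -0.97 in Schwann-like cells (33 and 22 UMIs). Itgal had -0.65 in neutrophil-like and -0.93 in dendritic-like cells (46 and 26 UMIs), but 1.32 in endothelial-like cells, again on 12 and 16 UMIs. Some of these values changed sign with the processing: Itga4 came to -0.95 in endothelial-like and -0.37 in mesenchymal-like cells with an equal doublet share removed, and neutrophil-like Vcam1 to 1.71 with a stricter cell filter.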

How the results depend on the processing

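Over 57 member and class pairs, 11 were called higher and 13 lower, where the rule called 5.03% to 12.9% of all genes of a class higher and 4.24% to 24.4% lower. Of the pairs, 56 had a ratio, 12 of them lower. The counts came to 6 higher of 56 with an equal doublet share removed, 7 higher and 5 lower of 50 with cells thinned to 2000 UMIs, and 7 higher of 46 with a minimum of 50 UMIs. Values below are log2 ratios of irradiated over control. Neutrophil-like cells moved most with scaling: Selplg came to -0.22 and -0.21, Itgal to -0.32 and -0.31 and Itga4 to -0.86 and -0.85 with TMM and median-of-ratios scaling, and macrophage-like Vcam1 to -1.50 with the latter. Clusters weighted alike gave -0.24, -0.18 and -0.76 for the same neutrophil-like genes, -0.67 for macrophage-like Vcam1 and 0.14 for endothelial-like Selp. Thinning gave neutrophil-like Selplg -0.27 and Itga4 -1.61, and endothelial-like Selp 0.24, Sele -0.39 and Vcam1 1.25. Weighting every cell alike gave endothelial-like Selp 0.22 and Sele -0.42. The stricter cell filter gave endothelial-like Selp -0.02, Sele -0.29, Icam1 0.45 and Vcam1 0.86, and macrophage-like Vcam1 -1.46. With no doublets removed these were 0.19, -0.03, 0.72, 0.94 and -1.76, and Icam2 was 0.00. Chosen after seeing the data, endothelial subclusters weighted alike gave Selp -0.14, Sele -0.43, Icam1 0.44 and Vcam1 0.92. Leaving out the mixed subclusters, also chosen after seeing the data, left all 9 ratios within their intervals. Over these settings endothelial-like Glycam1 ran from -2.24 to -1.65. Called values that changed sign rested on low counts: neutrophil-like Vcam1 was 1.71 with the stricter filter, Schwann-like Icam1 was -0.75 with the looser filter, -1.35 with no doublets removed and -0.75 with coarser clustering, and Itga4 was -0.95 in endothelial-like and -0.37 in mesenchymal-like cells with an equal doublet share removed. The cause of these changes was not tested. No paired analysis was possible because each group has 1 library. Leaving out a replicate could not be run for the same reason. Depth limits the neutrophil-like class, whose median control cell held 2106.5 UMIs.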
